A study of Mus musculus with 34 samples.

Results

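Ribosome biogenesis genes were followed as a list of 37 nucleolar and RNA polymerase I genes through the adipocyte differentiation of mouse 3T3-L1 cells, a clonal preadipocyte line that turns into fat cells when given a hormone cocktail. The list was made by gene name and function, without a threshold on the measured values. Earlier results of these data were known when it was chosen, so it is not independent of them. All 37 had 1 transcript each among the 17515 in the RNA table, and all 37 were among the 13534 transcripts that passed the filter on low values (a log2 value of at least 1 in at least 2 libraries). They fall into 6 roles: 4 proteins of the box C/D small nucleolar ribonucleoproteins (snoRNPs), 4 of the box H/ACA snoRNPs, 5 other nucleolar proteins, 4 subunits of RNA polymerase I, 10 factors of the small ribosomal subunit and 10 of the large one. Of the 37, 27 had a KDM5A peak, 26 an H3K4me3 peak and 7 a KDM5C peak within 1000 bp of the start site under their own name, of 11573, 9306 and 2172 such promoter peaks in all.

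The series depleted the KDM5 family, enzymes that remove methyl groups from lysine 4 of histone H3, and asked how this changes gene activity during differentiation. The cells for RNA (12 libraries) and for H3K4me3 ChIP-seq (12 libraries) carried lentiviral short hairpin RNAs against Kdm5a, Kdm5b and Kdm5c together (shKdm5ABC) or against luciferase (shLuc, the control). Transduction took place 4 days before induction, lasted 24 hours and used polybrene at 6 ug/mL, and this holds for control and knockdown cells alike. Cells were collected at day 0 (confluent for 2 days, not yet induced), 4 hours after induction and at day 2, with 2 libraries per group that the titles number as experiments. The inducing medium held dexamethasone, insulin, isobutylmethylxanthine and serum. KDM5A (6 libraries, at day 0, 4 hours and day 2) and KDM5C (2 libraries, at day 2) were profiled in 3T3-L1 cells for which no transduction is stated. Cells for all ChIP libraries, H3K4me3 included, were crosslinked with DSG (0.2 mM, 45 minutes) and formaldehyde (1%, 10 minutes). Whether the experiments are separate cultures is not stated, so each p measures the spread between these libraries. The knockdown was partial: 50.7% to 58.1% of Kdm5a, 60.2% to 63.9% of Kdm5b and 38.0% to 39.7% of Kdm5c RNA was left.

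Ribosomes are built in the nucleolus, where RNA polymerase I transcribes the precursor of most ribosomal RNA. Box C/D and box H/ACA snoRNPs guide the methylation and pseudouridylation of that precursor, and large assembly complexes fold and cut it into the small and large subunits. The pathway is known to follow growth signals such as insulin and serum, and 3T3-L1 cells re-enter the cell cycle after induction before they become adipocytes. Many of its genes are known targets of E-box-binding factors such as MYC.

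RefSeq promoter windows (GRCm38.p6, 250 bases before to 50 bases after the start) were at hand for 32 of the 37 genes. The E-box CACGTG, which reads the same on both strands, occurred once in the windows of 7 of them (21.9%), against 11.6% of the 10432 genes with a window and a tested transcript and 8.09% of all 27025 genes with one. These 7 are shown because they are the members whose promoter letters hold the motif, and 6 of the 7 motifs lie within 100 bases before to 50 after the start. Each line gives 30 bases, 5′ to 3′ on the gene's strand, with the E-box in capitals.
Imp4 (chr1:34439696-34439725, plus strand): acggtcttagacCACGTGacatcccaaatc
Nop2 (chr6:125131811-125131840, plus strand): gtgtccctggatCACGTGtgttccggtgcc
Pes1 (chr11:3963965-3963994, plus strand): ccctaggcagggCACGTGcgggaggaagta
Wdr43 (chr17:71616220-71616249, plus strand): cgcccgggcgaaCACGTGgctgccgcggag
Tsr1 (chr11:74898092-74898121, plus strand): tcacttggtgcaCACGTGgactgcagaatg
Ltv1 (chr10:13193092-13193121, minus strand): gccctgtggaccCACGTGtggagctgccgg
Utp20 (chr10:88826765-88826794, minus strand): cccagcggcactaactaCACGTGaggaaaa
The first base of the E-box lay 121 bases before the start in Imp4 and 60 bases before it in Nop2. In Pes1, Wdr43, Tsr1, Ltv1 and Utp20 it lay 2, 17, 24, 28 and 37 bases after it. Other motifs were counted on both strands. CCGGAA, the core bound by ETS factors, was in 15 of 32 windows (46.9%) against 30.8% of tested genes, and the GC box GGGCGG in 23 (71.9%) against 67.4%. GCATGCG, part of the NRF1 motif, was in 1 (3.12%) against 7.11%, and TTGGCGC, an E2F-like motif, in 2 (6.25%) against 4.93%. By their letters these motifs can share only end bases with the E-box, and such overlaps were not counted apart. The median GC content was 59.7% over the 34 windows of the list and 60.7% over the 13190 windows of tested genes. A motif match is a description of the sequence and not a binding site.

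The RNA table holds log2 of tags per kb of transcript, and its depth is not known. Nip7 was measured through a non-coding RefSeq transcript and the other members through coding ones. The list lay above most transcripts, with a median level of 8.16 over all libraries against 6.73 for all tested transcripts. Npm1 was highest with a mean of 11.54 and Polr1e lowest with 5.98. ChIP libraries held 3.87M to 17.6M reads for KDM5A, 8.37M to 13.59M for H3K4me3 and 2.95M and 8.13M for KDM5C, as recovered from the steps of the deposited values. The preadipocyte and adipocyte marker lists (7 genes each) were measured in every library, and 12 of 13 measured markers of macrophage, endothelial, muscle, neuron and epithelial cells stayed below a log2 value of 2 throughout. The exception was Cd68, with 4.07 to 5.94, while the macrophage genes Ptprc and Adgre1 were at the floor. The library of shKdm5ABC day 0, experiment 2, stood apart by its adipocyte genes, with Cidec at 6.98 against 3.68 in experiment 1 and Adipoq at 5.80 against 3.06.

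In control cells, ribosome biogenesis genes rose within 4 hours of induction and stayed up at day 2. At 4 hours 34 of the 37 rose and 0 fell by limma, where 20.7% of all tested transcripts rose and 21.6% fell, and the median of the list was 1.04 on the log2 scale against -0.02 for all transcripts. At day 2, 35 rose and 0 fell against 27.1% and 27.8% of all transcripts, with a median of 1.24 against -0.01. Both comparisons use the same day 0 libraries. The libraries of the later time lay above those of day 0 in 36 of 37 genes at 4 hours (34.2% of all transcripts) and in 36 at day 2 (37.6%), and Utp20 was the exception both times. All fold changes are differences of log2 values. In bulk RNA, fewer cells with a high level and less RNA per cell cannot be told apart.

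**Figure D1:**
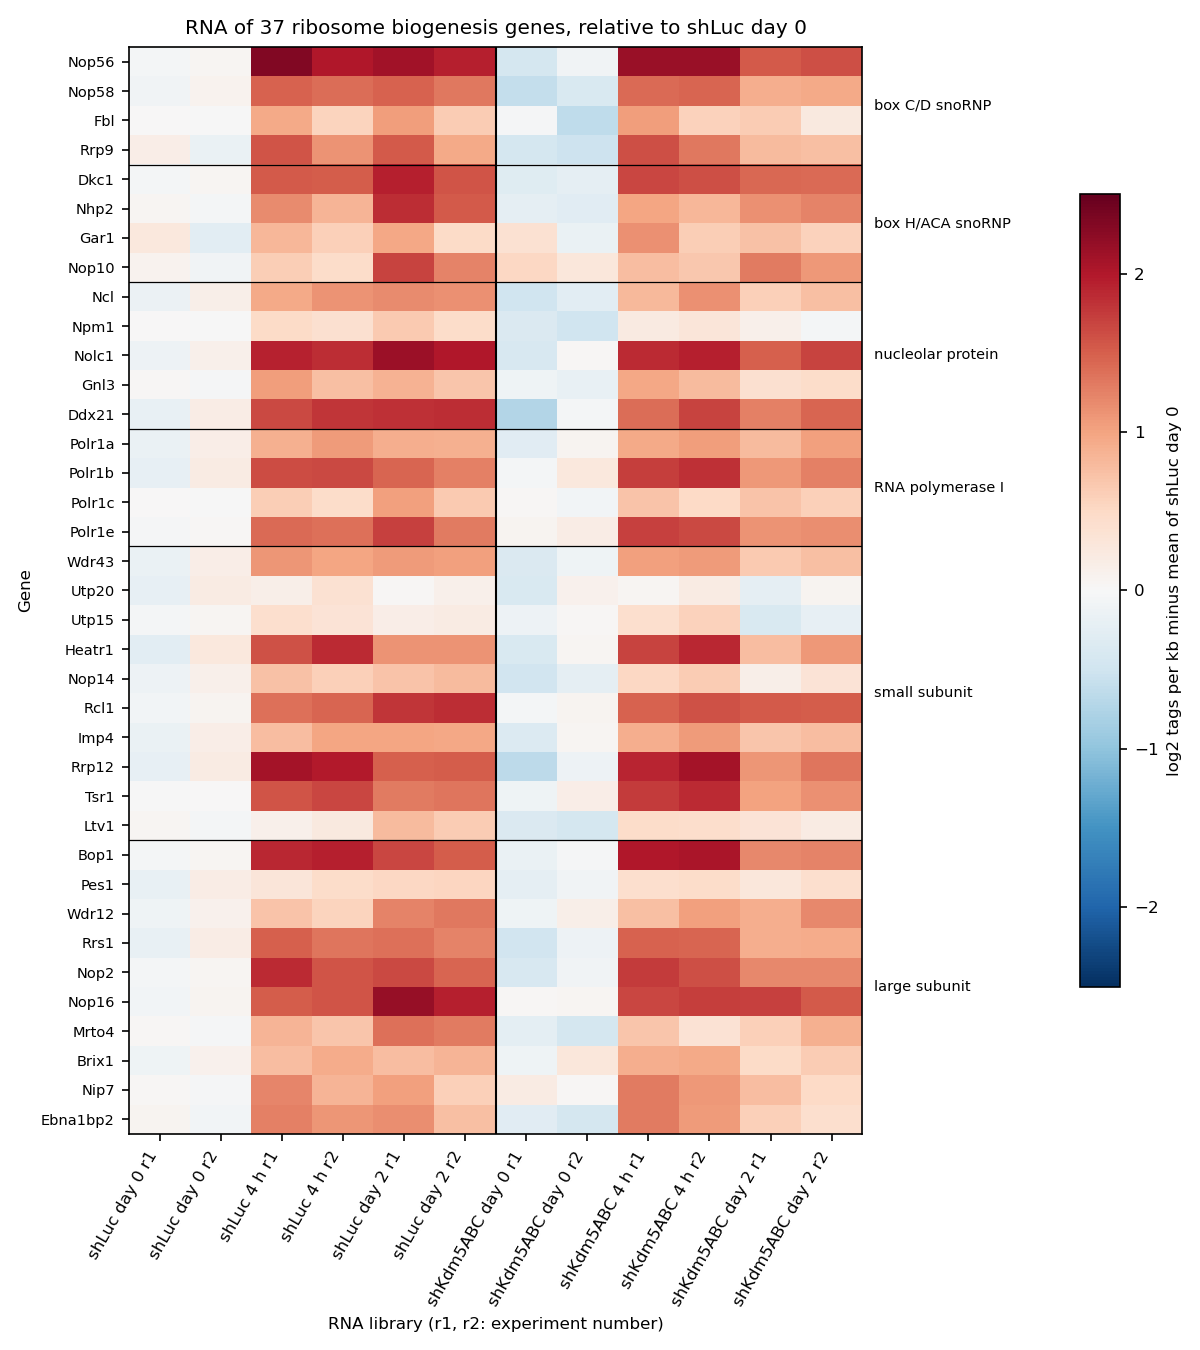
RNA of the 37 genes (rows, by role) in the 12 RNA libraries (columns, r1 and r2 for the experiment), coloured by the log2 value minus the mean of the 2 shLuc day 0 libraries. Both viruses turn from pale at day 0 to red at 4 hours and day 2, and the shKdm5ABC day 2 columns are paler than the shLuc day 2 columns, with 36 of 37 means lower.

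The 4 box C/D proteins all rose at both times, with medians of 1.40 at 4 hours and 1.32 at day 2. Nop56, a core protein of these particles and the highest of the 4, measured 8.73 and 8.81 at day 0, 11.09 and 10.78 at 4 hours and 10.87 and 10.72 at day 2 in shLuc libraries. It rose by 2.17 (SE 0.14, adjusted p 3.99e-06) at 4 hours, the largest rise of the list, and by 2.02 (SE 0.14, adjusted p 2.40e-06) at day 2, and no later library reached down to the day 0 values. Nop58, its partner in the particle core, measured 8.80 and 8.97 at day 0, 10.36 and 10.29 at 4 hours and 10.37 and 10.20 at day 2. It rose by 1.44 (SE 0.11, adjusted p 1.31e-05) and 1.40 (SE 0.11, adjusted p 5.13e-06), again with no overlap. The methyltransferase Fbl had the smallest rise of the 4 at 4 hours, 0.75 (SE 0.25, adjusted p 0.0363). Rrp9, a protein of the snoRNP that starts small subunit processing, had no promoter peak of its own in any ChIP table and measured 7.27 and 6.94 at day 0, 8.68 and 8.23 at 4 hours and 8.63 and 8.06 at day 2.

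Of the 4 box H/ACA proteins 3 rose at 4 hours and all 4 at day 2, with medians of 0.86 and 1.57. Dkc1, the pseudouridine synthase of the particle, measured 7.0 and 7.10 at day 0, 8.58 and 8.56 at 4 hours and 8.99 and 8.61 at day 2. It rose by 1.52 (SE 0.13, adjusted p 1.70e-05) and 1.75 (SE 0.13, adjusted p 2.67e-06). Nop10 and Nhp2, small structural proteins of the same particle, went up in 2 steps. Nop10, the highest of the 4, measured 8.62 and 8.45 at day 0, 9.16 and 8.99 at 4 hours and 10.22 and 9.78 at day 2. It rose by 0.54 (SE 0.16, adjusted p 0.0213) at 4 hours and by a further 0.92 (SE 0.16, adjusted p 0.000900) from 4 hours to day 2, the largest later rise of the list. Nhp2 measured 8.03 and 7.95 at day 0, 9.18 and 8.84 at 4 hours and 9.83 and 9.52 at day 2, and rose by 0.67 (SE 0.14, adjusted p 0.00331) after 4 hours. Gar1 differed by 0.71 (SE 0.27, adjusted p 0.0551) at 4 hours and did not pass the test.

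All 5 nucleolar proteins rose at both times, with medians of 1.03 and 1.16. Nolc1, a chaperone of snoRNPs, measured 8.35 and 8.60 at day 0, 10.40 and 10.33 at 4 hours and 10.61 and 10.47 at day 2, and rose by 1.89 (SE 0.15, adjusted p 1.37e-05) at 4 hours and 2.07 (SE 0.15, adjusted p 2.80e-06) at day 2. The helicase Ddx21 rose by 1.71 (SE 0.21, adjusted p 0.000157) at 4 hours and nucleolin (Ncl) by 1.03 (SE 0.15, adjusted p 0.000503). Npm1, a nucleolar chaperone and the most abundant transcript of the list, had the smallest rise among these 5. It measured 11.40 and 11.39 at day 0, 11.89 and 11.79 at 4 hours and 12.06 and 11.85 at day 2, so that its 2 libraries at each later time lay above those of day 0, and it rose by 0.44 (SE 0.13, adjusted p 0.0177) and 0.56 (SE 0.13, adjusted p 0.00365). Gnl3, the GTPase nucleostemin, rose by 0.89 (SE 0.12, adjusted p 0.000365) at 4 hours.

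RNA polymerase I subunits rose together, 4 of 4 at both times, with medians of 1.19 and 1.13. Polr1b, its second-largest subunit, measured 6.06 and 6.48 at day 0, 7.89 and 7.92 at 4 hours and 7.73 and 7.53 at day 2 and rose by 1.64 (SE 0.17, adjusted p 5.12e-05) at 4 hours. Polr1e, a subunit that the other nuclear polymerases lack, measured 4.97 and 5.04 at day 0, 6.42 and 6.39 at 4 hours and 6.72 and 6.30 at day 2 and rose by 1.50 (SE 0.16, adjusted p 2.86e-05) at day 2. Polr1c, which RNA polymerase III shares, had the highest level and the smallest rise of the 4. It measured 8.44 and 8.42 at day 0, 9.04 and 8.90 at 4 hours and 9.45 and 9.09 at day 2 and rose by 0.54 (SE 0.14, adjusted p 0.0103) at 4 hours. The largest subunit, Polr1a, measured 7.60 and 7.93 at day 0, 8.65 and 8.84 at 4 hours and 8.67 and 8.66 at day 2 and rose by 0.98 (SE 0.16, adjusted p 0.000859).

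Of the 10 small subunit factors 8 rose at 4 hours and 8 at day 2, with medians of 0.96 and 1.01. Tsr1, a factor of late small subunit maturation and the highest of the 10, measured 8.12 and 8.14 at day 0, 9.71 and 9.81 at 4 hours and 9.43 and 9.46 at day 2 and rose by 1.63 (SE 0.12, adjusted p 6.59e-06) at 4 hours. Rcl1, an early processing factor, measured 8.0 and 8.11 at day 0, 9.43 and 9.52 at 4 hours and 9.83 and 9.90 at day 2 and rose by 1.81 (SE 0.10, adjusted p 7.90e-07) at day 2, the smallest p of the list there. Rrp12 and Heatr1, which act in small subunit assembly, were highest at 4 hours. Rrp12 measured 6.14 and 6.53 at day 0, 8.42 and 8.31 at 4 hours and 7.82 and 7.85 at day 2; it rose by 2.03 (SE 0.19, adjusted p 3.47e-05) and then fell by 0.53 (SE 0.19, adjusted p 0.0433) to day 2. Heatr1 measured 6.22 and 6.74 at day 0, 8.07 and 8.34 at 4 hours and 7.59 and 7.61 at day 2, rose by 1.72 (SE 0.21, adjusted p 0.000146) and then fell by 0.60 (SE 0.21, adjusted p 0.0359). In both genes the day 2 libraries lay between those of day 0 and 4 hours. Ltv1, an export factor of the small subunit, was late instead. It measured 7.19 and 7.08 at day 0, 7.26 and 7.38 at 4 hours and 7.93 and 7.77 at day 2, with a difference of 0.19 (SE 0.12, adjusted p 0.222) at 4 hours that missed the threshold and a rise of 0.53 (SE 0.12, adjusted p 0.00437) from 4 hours to day 2. Utp15 measured 7.22 and 7.29 at day 0, 7.67 and 7.60 at 4 hours and 7.41 and 7.46 at day 2 and passed the test at 4 hours (0.38 (SE 0.12, adjusted p 0.0275)) but not at day 2 (0.18 (SE 0.12, adjusted p 0.228)). Utp20 passed at neither time, with differences of 0.27 (SE 0.20, adjusted p 0.303) and 0.08 (SE 0.20, adjusted p 0.764).

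All 10 large subunit factors rose at both times, with medians of 1.11 and 1.29. Bop1, which forms the PeBoW complex with Pes1 and Wdr12, had the smallest p of the list at 4 hours. It measured 7.44 and 7.54 at day 0, 9.37 and 9.43 at 4 hours and 9.16 and 9.01 at day 2. It rose by 1.91 (SE 0.10, adjusted p 1.33e-06) at 4 hours and then fell by 0.32 (SE 0.10, adjusted p 0.0279) to day 2. Of its partners, Wdr12 rose by 0.63 (SE 0.16, adjusted p 0.00948) at 4 hours and by 0.64 (SE 0.16, adjusted p 0.00718) more after it, and Pes1 rose by 0.38 (SE 0.14, adjusted p 0.0457) at 4 hours. Nop2, an RNA methyltransferase and the highest of the 10, measured 8.36 and 8.44 at day 0, 10.27 and 9.97 at 4 hours and 10.05 and 9.86 at day 2 and rose by 1.72 (SE 0.14, adjusted p 1.52e-05) at 4 hours. Nop16 measured 6.48 and 6.61 at day 0, 8.06 and 8.12 at 4 hours and 8.73 and 8.50 at day 2 and rose by 2.07 (SE 0.12, adjusted p 8.87e-07) at day 2. Mrto4, a factor related to a ribosomal stalk protein, measured 7.14 and 7.06 at day 0, 7.95 and 7.79 at 4 hours and 8.47 and 8.40 at day 2 and rose by 0.57 (SE 0.15, adjusted p 0.0110) after 4 hours. Rrs1 and Brix1, 2 further assembly factors, measured 7.17 and 7.54 at day 0, 8.86 and 8.70 at 4 hours and 8.73 and 8.59 at day 2 and 7.82 and 8.04 at day 0, 8.71 and 8.85 at 4 hours and 8.70 and 8.78 at day 2. They rose by 1.42 (SE 0.15, adjusted p 6.93e-05) and 0.85 (SE 0.14, adjusted p 0.00104) at 4 hours.

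From 4 hours to day 2 of control cells the list as a whole stayed level. Its median was 0.02 and 27 of 37 genes did not pass the test. The 7 that rose (Nop10, Nhp2, Ltv1, Nop16, Wdr12, Rcl1 and Mrto4) and the 3 that fell (Bop1, Heatr1 and Rrp12) compare with 22.9% and 23.5% of all transcripts. Leaving out 1 of the 4 libraries compared kept 6 to 8 rises but 0 or 1 of the falls.

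In knockdown cells the list also rose at 4 hours, and part of it fell again by day 2. In shKdm5ABC cells 35 of 37 genes rose and 0 fell at 4 hours (22.4% and 23.7% of all transcripts, median 1.27). At day 2, 34 rose and 0 fell (22% and 23.1%, median 1.04). From 4 hours to day 2, 15 of 37 fell and 1 rose, against 20.9% and 20.4% of all transcripts, with a median of -0.33. The gene that rose was Nop10, with 9.05 and 8.82 at day 0, 9.30 and 9.21 at 4 hours and 9.83 and 9.61 at day 2 in shKdm5ABC libraries and a difference of 0.47 (SE 0.16, adjusted p 0.0385). The largest falls were in 3 assembly factors. Heatr1 fell by 0.86 (SE 0.21, adjusted p 0.00758), Bop1 fell by 0.80 (SE 0.10, adjusted p 0.000190) and Utp15 fell by 0.79 (SE 0.12, adjusted p 0.000528). With the experiment number as a block, 22 fell and 2 rose, for which no share of all transcripts is given. Leaving out 1 of the 4 libraries compared left 7 to 10 falls and 0 rises.

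Compared directly with control cells, the list held no call before induction or at 4 hours, and at day 2 nearly all of its means were lower. At day 0, 27 of 37 means were lower in shKdm5ABC cells with a median of -0.17, but limma called 0 (8 at an unadjusted p under 0.05, background 1.51% called). With the experiment number as a block, 6 fell and 1 rose, for which no share of all transcripts is given. Without the day 0 library that is high in adipocyte genes the count was also 0. At 4 hours the median was 0.06 and limma called 0 of 37 (0 at an unadjusted p under 0.05, background 1.44%). At day 2, 8 genes fell and 0 rose, where 3.34% of all transcripts fell and 5.66% rose, and 36 of 37 means were lower with a median of -0.36 against -0.003 for all transcripts. This leaves a median of 78.1% of the control level, with a range from 66.5% (Mrto4) to 100.2% (Polr1a). In 31 genes both knockdown libraries lay below both control libraries, which holds for 27.1% of all transcripts. The 6 that overlapped were Gar1, Nip7, Nop10, Polr1a, Polr1c and Utp20.

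The 8 calls at day 2 lie close to the threshold. With the experiment number as a block 22 of 37 fell and 0 rose. The shares of all transcripts above come from the fit without the block, so they are no measure for this count. Fitting the 2 compared groups alone gave 0 calls, a fit without the mean-variance trend gave 1, and leaving out any 1 of the 4 libraries gave 0 or 1. The median stayed between -0.45 and -0.26 when a library was left out. Marker lists differed too: 6 of 7 preadipocyte markers had higher means in day 2 knockdown cells (1 rose, median 0.75) and 6 of 7 adipocyte markers lower ones (0 called, median -0.47). The summed preadipocyte markers ranged from 12.39 to 13.00 in shLuc and from 13.12 to 13.65 in shKdm5ABC at day 2, and the adipocyte sum from 15.04 to 15.38 and from 14.13 to 14.88. Their part in the lower levels was not tested.

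**Figure D2:**
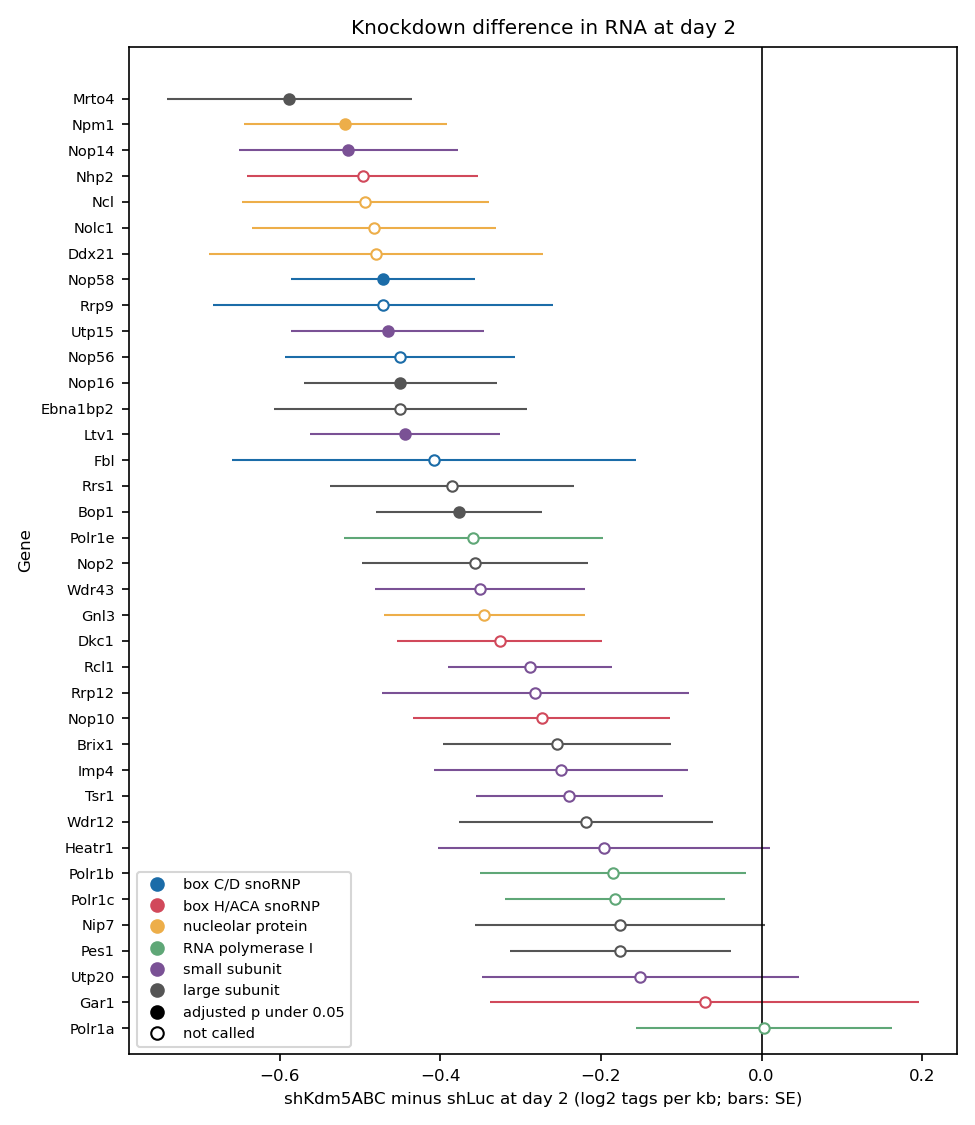
Difference in RNA between shKdm5ABC and shLuc at day 2 (x axis, log2 tags per kb, bars are the SE of the fit, 2 libraries per group) for each of the 37 genes (y axis), coloured by role, with filled points for an adjusted p under 0.05. All points but Polr1a lie left of 0, and the 8 filled points lie between -0.59 (Mrto4) and -0.38 (Bop1).

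The members that fell came from 4 of the 6 roles. At day 0 knockdown and control means were 8.40 and 8.89 for Nop58, 10.97 and 11.40 for Npm1 and 8.12 and 8.48 for Nop14. They were 6.73 and 7.13 for Ltv1, 6.76 and 7.10 for Mrto4 and 7.39 and 7.49 for Bop1. Utp15 had 7.205 and 7.255 and Nop16 6.58 and 6.54, and no day 0 difference was called. At 4 hours the median knockdown difference of the list was 0.06. Whether the day 2 differences began before induction was not tested. Among box C/D proteins Nop58 measured 8.29 and 8.50 at day 0, 10.31 and 10.33 at 4 hours and 9.80 and 9.83 at day 2 in shKdm5ABC libraries, so that both day 2 values lay under the 10.37 and 10.20 of control cells. It fell by 0.47 (SE 0.11, adjusted p 0.0326). Its partner Nop56 measured 8.33 and 8.68 at day 0, 10.93 and 10.93 at 4 hours and 10.31 and 10.38 at day 2 and differed by -0.45 (SE 0.14, adjusted p 0.0792), which did not pass. Among nucleolar proteins Npm1 measured 11.04 and 10.90 at day 0, 11.62 and 11.70 at 4 hours and 11.52 and 11.35 at day 2 and fell by 0.52 (SE 0.13, adjusted p 0.0328). Its day 2 level in knockdown cells lay near that of control cells at day 0 (11.40 and 11.39) and above its own at day 0. Nolc1, with 8.08 and 8.50 at day 0, 10.35 and 10.41 at 4 hours and 9.96 and 10.16 at day 2, differed by -0.48 (SE 0.15, adjusted p 0.0766).

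In the small subunit group 3 factors fell at day 2. Nop14, a component of the small subunit processome, measured 8.0 and 8.25 at day 0, 8.99 and 9.11 at 4 hours and 8.62 and 8.82 at day 2 against 8.34 and 8.61 at day 0, 9.22 and 9.07 at 4 hours and 9.20 and 9.27 at day 2 in shLuc libraries and fell by 0.51 (SE 0.14, adjusted p 0.0445). Utp15 measured 7.13 and 7.28 at day 0, 7.68 and 7.84 at 4 hours and 6.88 and 7.06 at day 2, with both day 2 libraries below every other library of the gene, and fell by 0.47 (SE 0.12, adjusted p 0.0408). Ltv1 measured 6.77 and 6.70 at day 0, 7.59 and 7.57 at 4 hours and 7.48 and 7.33 at day 2 and fell by 0.44 (SE 0.12, adjusted p 0.0447). Tsr1, Rcl1, Heatr1 and Rrp12 differed by -0.24, -0.29, -0.20 and -0.28 without passing. Tsr1 measured 8.01 and 8.30 at day 0, 9.88 and 9.99 at 4 hours and 9.14 and 9.27 at day 2 and Rcl1 8.0 and 8.13 at day 0, 9.53 and 9.65 at 4 hours and 9.58 and 9.57 at day 2. Rrp12 measured 5.67 and 6.21 at day 0, 8.23 and 8.41 at 4 hours and 7.44 and 7.67 at day 2 and Heatr1 6.10 and 6.53 at day 0, 8.17 and 8.36 at 4 hours and 7.25 and 7.56 at day 2. All 4 had knockdown day 2 libraries below the control ones.

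Among large subunit factors Mrto4, Nop16 and Bop1 fell. Mrto4 measured 6.87 and 6.66 at day 0, 7.79 and 7.45 at 4 hours and 7.70 and 8.0 at day 2 and fell by 0.59 (SE 0.15, adjusted p 0.0414), the largest fall of the list. Nop16 measured 6.57 and 6.60 at day 0, 8.21 and 8.28 at 4 hours and 8.25 and 8.08 at day 2 and fell by 0.45 (SE 0.12, adjusted p 0.0451). Bop1 measured 7.32 and 7.46 at day 0, 9.49 and 9.53 at 4 hours and 8.68 and 8.73 at day 2 and fell by 0.38 (SE 0.10, adjusted p 0.0498). In these 3 genes no knockdown library at day 2 reached a control one. Nop2, with 8.0 and 8.31 at day 0, 10.15 and 10.01 at 4 hours and 9.60 and 9.61 at day 2, differed by -0.36 (SE 0.14, adjusted p 0.147). Rrs1 measured 6.87 and 7.22 at day 0, 8.83 and 8.81 at 4 hours and 8.27 and 8.28 at day 2 and Brix1 7.82 and 8.21 at day 0, 8.84 and 8.88 at 4 hours and 8.41 and 8.56 at day 2, with differences of -0.39 and -0.25 that did not pass.

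Neither box H/ACA proteins nor RNA polymerase I subunits held a call at day 2, with medians of -0.30 and -0.18. Nhp2 measured 7.77 and 7.70 at day 0, 8.99 and 8.82 at 4 hours and 9.13 and 9.23 at day 2 and differed by -0.50 (SE 0.14, adjusted p 0.0585). Dkc1 measured 6.75 and 6.82 at day 0, 8.71 and 8.66 at 4 hours and 8.49 and 8.46 at day 2, a difference of -0.33 (SE 0.13, adjusted p 0.142). Both had knockdown libraries below the control ones. Polr1e measured 5.08 and 5.19 at day 0, 6.71 and 6.65 at 4 hours and 6.14 and 6.17 at day 2 and differed by -0.36 (SE 0.16, adjusted p 0.198). Polr1b measured 6.22 and 6.53 at day 0, 8.0 and 8.10 at 4 hours and 7.36 and 7.53 at day 2 and Polr1c 8.47 and 8.36 at day 0, 9.15 and 8.94 at 4 hours and 9.14 and 9.03 at day 2. Polr1a, the one member without a lower mean, measured 7.48 and 7.84 at day 0, 8.72 and 8.82 at 4 hours and 8.55 and 8.79 at day 2 and differed by 0.003 (SE 0.16, adjusted p 0.995). Rrp9 measured 6.66 and 6.59 at day 0, 8.72 and 8.43 at 4 hours and 7.89 and 7.86 at day 2 and differed by -0.47 (SE 0.21, adjusted p 0.198).

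The change of the knockdown effect over time was tested in its own right. From 4 hours to day 2 the effect moved down in 37 of 37 genes with a median of -0.41, and limma called 0 of them (10 at an unadjusted p under 0.05, 0.148% of all transcripts called). With the experiment number as a block 8 fell, again without a share of all transcripts to set beside it. From day 0 to day 2 the median was -0.16 with 0 calls (3 unadjusted, background 0.31%), and 1 with the block. From day 0 to 4 hours the median was 0.21 with 0 calls (2 unadjusted, background 0%). These terms share libraries with the comparisons above. Across the 37 genes the knockdown difference at day 2 had a Spearman rho of -0.12 with the control rise at 4 hours, which uses other libraries, and of -0.37 with the mean level. Genes are not independent replicates.

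Other genes of the pathway, a list of 108 of which 104 were measured, mostly rose in control cells. This list too was chosen with earlier results of these data known. At 4 hours 80 rose and 2 fell (20.7% and 21.6% of all transcripts, median 0.82), and at day 2 again 80 and 2 (27.1% and 27.8%, median 0.67). Its 10 polymerase I factors did not follow as a group: 4 rose and 1 fell at each time, with medians of 0.24 and 0.12. Ftsj3, an RNA methyltransferase of the large subunit, measured 7.97 and 7.99 at day 0, 9.79 and 9.65 at 4 hours and 9.78 and 9.57 at day 2. Nifk, a nucleolar partner of Ki-67, measured 8.05 and 8.10, then 9.55 and 9.59, then 9.78 and 9.80. At 4 hours Ftsj3 rose by 1.74 and Nifk by 1.49. In the knockdown at day 2, 96 of 104 means were lower, 6 genes fell (Rrn3, Utp18, Utp4, Rpf2, Utp11 and Lyar) and 0 rose, against 3.34% and 5.66% of all transcripts, with a median of -0.25. The 6 calls are few, and the share of all transcripts that fell is not far from theirs. Rrn3, the factor that recruits RNA polymerase I to its promoter, was the one gene of this list that also fell at day 0 and at 4 hours. It measured 8.04 and 8.44 at day 0, 8.93 and 9.06 at 4 hours and 9.24 and 9.57 at day 2 in shLuc libraries. In shKdm5ABC libraries it measured 6.93 and 7.29, then 7.75 and 8.06, then 7.74 and 8.21, below the control libraries of the same time throughout. Rrn3 fell by 1.13 (SE 0.21, adjusted p 0.0331) at day 0, by 1.09 (SE 0.21, adjusted p 0.0398) at 4 hours and by 1.43 (SE 0.21, adjusted p 0.00470) at day 2. Utp18 and Utp4, small subunit factors, fell by 0.63 (SE 0.12, adjusted p 0.0117) and 0.56 (SE 0.11, adjusted p 0.0148) at day 2. Whether the hairpins act on Rrn3 directly was not tested.

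KDM5A peaks were about as frequent at these promoters as at tested genes in general, and held more tags than the typical promoter peak. Under their own name 27 of 37 genes (73.0%) had a KDM5A peak within 1000 bp, against 69.8% of tested genes. At day 2, 24 of the 27 lay above the median of all 11573 promoter peaks and 16 (59.3%) above the upper quartile. The median of the 27 was 373 normalized tags against 183, as the mean of 2 libraries. The same order was seen in each library, with medians of 216 to 508 against 92.0 to 209, while the input gave 18.0 against 11.7. Peaks of the list were wider, with a median of 2066 bp against 1613 bp, and tags are summed over a peak. They were not corrected for the width or for the higher input. Tags are scaled to library totals, and experiment 1 was above experiment 2 at every time, most at day 0 with medians of 508 and 216.

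Nip7, a factor of the large subunit, had the most KDM5A at day 2, in a peak at chr8:109579776-109582701 (mm9) that it shares with the divergent gene Cog8. It held 1446 and 549 tags at day 0, 1178 and 798 at 4 hours and 1607 and 926 at day 2. Imp4, part of the small subunit processome, followed at chr1:34495321-34498558 with 1141 and 537 tags at day 0, 923 and 641 at 4 hours and 1228 and 850.4 at day 2. Nolc1 came next at chr19:46149705-46152597 with 1064 and 467 tags at day 0, 818 and 729 at 4 hours and 1176 and 698 at day 2. Experiment 1 was above experiment 2 at each time in these 3 genes. At the low end Ltv1 held 201 and 88.1 tags at day 0, 173 and 77.5 at 4 hours and 152 and 141 at day 2 at chr10:12911744-12913759, Nop10 218 and 103 tags at day 0, 192 and 116 at 4 hours and 182 and 172 at day 2 at chr2:112101635-112102739 and Gnl3 308 and 117 tags at day 0, 169 and 119 at 4 hours and 209 and 156 at day 2 at chr14:31831197-31833011. Even the lowest of these values, 77.5 tags for Ltv1, was above its input of 11.7. Divergent genes also start 157 bp from Imp4 (Ccdc115) and 7 bp from Gnl3 (Pbrm1), so those peaks cannot be given to 1 gene alone.

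**Figure D3:**
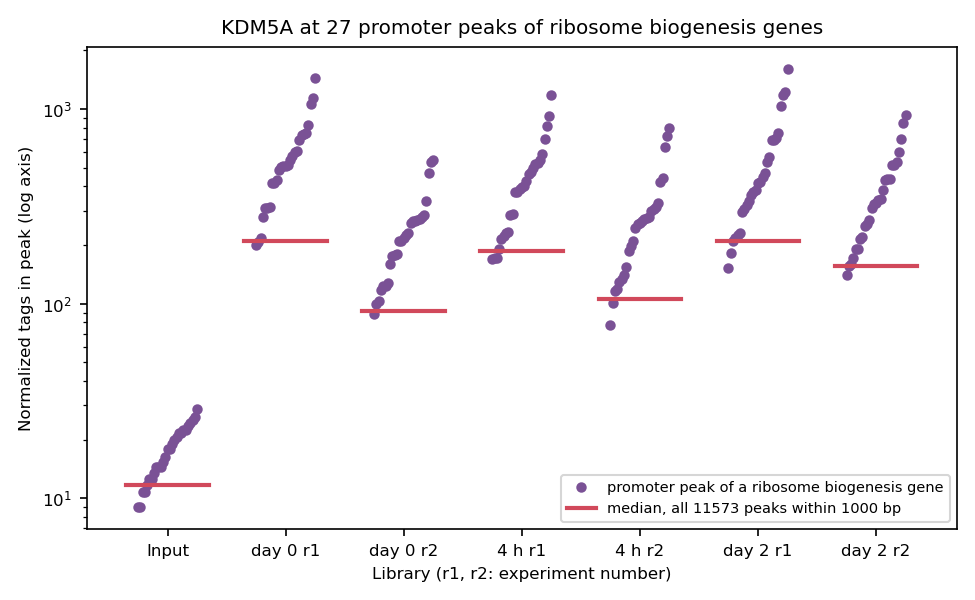
KDM5A tags (y axis, log scale, normalized tags in the peak) at the 27 promoter peaks of ribosome biogenesis genes, sorted within each of the 6 KDM5A libraries and the input (x axis). Red lines are the medians of all 11573 promoter peaks, and most points lie above them in every library, while experiment 2 is lower than experiment 1 at each time.

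No change of KDM5A over time was called at these promoters, but the fit recovered none of the changes added to simulated data for this assay, so a count of 0 says nothing about whether KDM5A changed. The background was 0.0606% of all 87525 peaks from day 0 to 4 hours, 0.173% from day 0 to day 2 and 0.607% from 4 hours to day 2, and limma called 0 of 27 in each (0 at an unadjusted p under 0.05, and 0 by edgeR on recovered reads). The median of the list was -0.09, 0.24 and 0.33 on the log2 scale of tags plus 1. The middle value turned to -0.02 with median centring and to -0.16 with edgeR, so no direction holds from day 0 to day 2. Leaving out 1 library moved the first value between -0.68 and 0.53 and the last between -0.01 and 0.61. The KDM5A libraries of 4 hours experiment 2 (3.87M reads) and day 2 experiment 1 (4.41M) were the shallowest.

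The 10 genes without an own KDM5A promoter peak were Fbl, Rrp9, Rrs1, Nop14, Nop16, Nhp2, Polr1a, Polr1c, Utp15 and Brix1. In Fbl, Polr1c and Nhp2 the nearest peak lay just past the limit, at 1050, 1035 and 1063 bp. Rrs1 had no promoter window, so divergent neighbours were not looked for there. In 6 others a divergent neighbour whose start lies within 500 bp carried the peak in the authors' annotation: Parp3 for Rrp9, Ptcd3 for Polr1a, Ankra2 for Utp15, Grk4 for Nop14, Higd2a for Nop16 and Rad1 for Brix1. A split by own peak therefore follows gene names and the distance limit. It does not set promoters with KDM5A against promoters without it. The knockdown difference at day 2 had a median of -0.34 (range -0.59 to -0.07) over the 27 genes with an own peak and of -0.43 (range -0.51 to 0.00) over the 10 without. Across the 27 its Spearman rho with KDM5A tags was 0.07. All 7 genes with an E-box had an own KDM5A peak, as did 17 of the 25 whose window held none, and their knockdown medians were -0.25 and -0.36.

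KDM5C peaks were fewer. A KDM5C peak under the gene's own name lay within 1000 bp of 7 of the 37 genes (18.9%), against 14.1% of tested genes: Nop56, Nolc1, Npm1, Nip7, Ddx21, Polr1e and Pes1. Nop56 held by far the most, with 173 and 73.8 tags at chr2:130099093-130101542 and an input of 15.3. Its peak was 2449 bp wide, against a median of 500 bp for all KDM5C promoter peaks. Tags were not corrected for width or input. Nolc1 held 54.3 and 23.4 at chr19:46149817-46150317. The other 5 held 6.79 to 27.1 tags, near or under the median of all promoter peaks in the 2 libraries (27.1 and 12.3). The libraries hold 2.95M and 8.13M reads, so the lower values rest on few reads. A further KDM5C peak, named for Parp3, the divergent neighbour of Rrp9, held 30.5 and 19.7 tags and is not counted among the 7.

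The H3K4me3 columns do not follow their names at adipocyte genes, and this bears on each result below. H3K4me3 marks active promoters, and the RNA of 7 of 7 adipocyte genes rose from day 0 to day 2 under both viruses. In all 7 the Control_D2 columns overlapped those of Control_D0. Only the peak of Pparg lies within 1000 bp of a start site, and the other 6 lie 1004 to 2421 bp from one. In 4 of the 7 the columns named KDM5_KD_4h and KDM5_KD_D2 were above all 8 others: Cidec carried 258 to 451 tags there against 23.2 to 41.9, Adipoq 65.7 to 174 against 8.68 to 24.2, Plin1 77.1 to 140.1 against 4.65 to 14.1 and Fabp4 181 to 408 against 36.6 to 152. The other 3 did not show this split. Lpl overlapped, with 1712 to 2792 against 1102 to 1860.5. Pparg carried 428 and 563 in KDM5_KD_4h, less than the 838 and 933 of Control_4h and the 926 and 899 of KDM5_KD_D0. Cebpa carried 900 to 1094 in KDM5_KD_4h and KDM5_KD_D2, 804 and 1195 in Control_4h and 950.0 and 1120.0 in KDM5_KD_D0. Libraries are therefore called by their column names here, and no direction of the knockdown or of time is drawn from them. In addition the typical peak shifts between columns. The median of all peaks was 0.28 higher in Control_4h than in Control_D0, 0.29 higher in KDM5_KD_D0 and 0.03 higher in KDM5_KD_4h.

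Against the Control_D0 columns, ribosome biogenesis promoters held more H3K4me3 in the columns named Control_D2 and KDM5_KD_4h while the typical promoter did not. In Control_D2 all 26 had higher means with a median of 0.32 (range 0.04 to 0.80), against -0.02 for all promoter peaks. Of these, 2 (Rrp12 and Wdr43) rose, where 1.31% of all peaks rose, and 15 did with the experiment number as a block. Leaving out any 1 of the 4 libraries gave 0 or 1, and fitting these groups alone gave 0. In KDM5_KD_4h, a comparison added after the adipocyte peaks of the columns were seen, all 26 were higher as well with a median of 0.33 against 0.04. Here 9 rose (background 5.49%) and 22 with the block, and 3 with only these groups in the fit. Leaving out KDM5_KD_4h experiment 1 gave 1, and leaving out either Control_D0 library gave 3. Median centring left these medians at 0.32 and 0.30. Both comparisons share the Control_D0 columns. The shares of all peaks come from the fit without the block and are no measure for the block counts.

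Rrp12 measured 549 and 595 tags in Control_D0, 802 and 857 in Control_4h, 1007 and 864 in Control_D2, 1084 and 935 in KDM5_KD_D0, 973 and 860.2 in KDM5_KD_4h and 953 and 919 in KDM5_KD_D2. Control_D0 was lowest, and no other column overlapped it. Nolc1 measured 799.6 and 662 tags in Control_D0, 909 and 742 in Control_4h, 1462 and 1106 in Control_D2, 1099.8 and 969.9 in KDM5_KD_D0, 1570.2 and 1206 in KDM5_KD_4h and 1415 and 1011 in KDM5_KD_D2. Its Control_D0 and Control_4h columns were the low ones. Nop58 measured 685 and 544 tags in Control_D0, 754 and 489 in Control_4h, 1139 and 935 in Control_D2, 768 and 620.4 in KDM5_KD_D0, 1248 and 1019.9 in KDM5_KD_4h and 1103 and 788 in KDM5_KD_D2. It was highest in Control_D2, KDM5_KD_4h and KDM5_KD_D2. For Control_D2 minus Control_D0 the differences were 0.71 (SE 0.12, adjusted p 0.0157) for Rrp12 and 0.47 (SE 0.10, adjusted p 0.0430) for Wdr43. For KDM5_KD_4h minus Control_D0 they were 0.92 (SE 0.21, adjusted p 0.0150) for Nolc1, 0.89 (SE 0.24, adjusted p 0.0333) for Nop58, 0.62 (SE 0.14, adjusted p 0.0146) for Ddx21 and 0.54 (SE 0.12, adjusted p 0.0141) for Polr1e.

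Across the 26 genes the H3K4me3 difference of Control_D2 minus Control_D0 had a Spearman rho of 0.81 with the RNA rise of control cells at 4 hours. The rho was 0.66 for KDM5_KD_4h minus Control_D0 and 0.28 for Control_4h minus Control_D0. The points are genes of 1 pathway and share all libraries of an assay, so these values are descriptions.

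In the other comparisons of named columns the count for the list moved with the scaling, the block or the libraries used. In KDM5_KD_D0 minus Control_D0 8 of 26 rose (Rrp12, Polr1e, Wdr43, Ddx21, Tsr1, Ebna1bp2, Fbl and Heatr1) where 32.7% of all peaks rose, with a median of 0.32 against 0.26 for all promoter peaks, with 1 called after median centring, 3 to 6 when a library was left out and 18 under the block. In KDM5_KD_4h minus Control_4h 5 rose (Nop58, Nolc1, Ddx21, Ncl and Dkc1) with a median of 0.20, where 1.62% of all peaks rose and 34.3% fell. With median centring 15 rose and with the block 13, and those shares are no measure for either number. The count was 0 without KDM5_KD_4h experiment 1 and 0 without Control_4h experiment 2. In KDM5_KD_D2 minus Control_D2 limma called 0 (0 unadjusted, background 24%, 2 with the block), and the median of -0.002 turned to -0.25 with median centring. Control_4h minus Control_D0 gave 3 (Polr1e, Rrp12 and Fbl, background 27.8% rose), and its median of 0.12 turned to -0.15 with median centring. The block gave 9 there, and the count was 0 without Control_4h experiment 2 or Control_D0 experiment 1. KDM5_KD_4h minus KDM5_KD_D0 gave 1 (Nop58, background 1.12%) and KDM5_KD_D2 minus KDM5_KD_D0 0 (0 unadjusted, background 0.346%), with 8 and 3 under the block and 0 in both when any 1 library was left out.

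**Figure D4:**
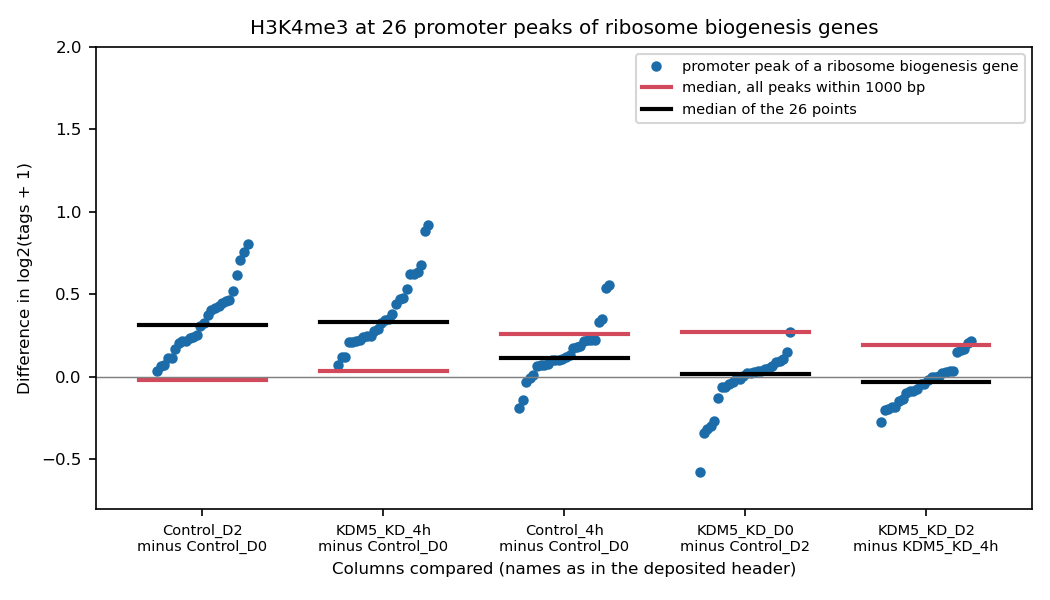
H3K4me3 difference (y axis, log2 of tags plus 1) at the 26 promoter peaks of ribosome biogenesis genes for 5 pairs of columns, named as in the deposited header (x axis), with black lines for the median of the 26 points and red lines for the median of all 9306 promoter peaks. The points lie above the red line in Control_D2 and KDM5_KD_4h against Control_D0, with medians of 0.32 and 0.33, while the median of the 26 lies below it in the other 3 pairs.

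In 2 further pairs of columns, also added after these peaks were seen, the typical promoter shifted and the median of the list was near 0. KDM5_KD_D0 minus Control_D2 gave a median of 0.02 for the 26 and 0.27 for all promoter peaks, with 0 called by limma (1 unadjusted, background 33.1% called) and 6 with the block (1 rose, 5 fell). KDM5_KD_D2 minus KDM5_KD_4h gave -0.03 and 0.19, with 0 called (0 unadjusted, background 29.6% called) and 4 with the block. Median centring turned these medians to -0.26 and -0.24. Which library each column holds cannot be told from the tables.

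Of the 11 genes without an own H3K4me3 promoter peak (Nop56, Bop1, Rrp9, Rrs1, Nop2, Nop16, Nop10, Polr1a, Polr1c, Utp15 and Brix1), 5 had a divergent neighbour with one: Ptcd3 by Polr1a, Yipf3 by Polr1c, Ankra2 by Utp15, Higd2a by Nop16 and Rad1 by Brix1. The peak at Yipf3 held 1147 to 1679 tags over the 12 columns. A peak between divergent genes cannot be given to either gene. Divergent neighbours were found for 15 of the 32 genes with a promoter window. Bop1, Rrs1, Fbl, Npm1 and Rrp12 had no window and were not checked for one. The RNA kit and counting are not stated to keep strand, so reads of overlapping antisense genes would not be told apart.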

How the data were processed

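The members and lists were chosen with earlier results of these data known. Per the submitters' processing notes the tools were Bowtie2 0.12.8, STAR, Subread, DESeq2 and HOMER with the mm9 build; which tool served which step is not given there. RNA values were deposited by the authors as log2 tags per kb, 1 column per library, on a scale that cannot show total RNA per cell and whose depth is unknown. ChIP values were deposited by the authors as a signal of normalized tags per peak, with peaks and gene names shared by all libraries of a table. Every value was a whole multiple of what 1 read is worth (within 0.1 reads), which gave the depths above; a stricter check of whole reads passed in 4 of the 12 H3K4me3 columns, so the depths of the other 8 are less certain and edgeR was not run there.

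Groups came from the sample labels. Transcripts with a log2 value of at least 1 in at least 2 libraries were tested with limma 3.58.1 (R 4.3.3) over 12 RNA libraries in 1 fit, with a mean-variance trend and Benjamini-Hochberg adjustment over all 13534. H3K4me3 and KDM5A used log2(tags + 1) in the same way. KDM5A was also tested with edgeR 4.0.16 on recovered reads. A call is an adjusted p under 0.05, two-sided. The fits were tested on simulated data: RNA and H3K4me3 recovered most of the largest changes added and few or none of the smallest, and KDM5A recovered none of any size. A promoter peak lies within 1000 bp of a start site of the same symbol.

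Experiment numbers pair the RNA libraries (correlation of deviations 0.381 to 0.657 over 15 pairs of groups) and the H3K4me3 libraries (0.504 to 0.79), so values with the experiment as a block stand beside results they move. Every share of all transcripts or peaks given here is from the main fit, without the block and without median centring. Per-library values are given, in each role, for the gene of the highest level and those of the smallest p at 4 hours, at day 2 and for the knockdown at day 2. They are also given for genes called against the common direction, genes called in the knockdown and genes with no promoter peak. For KDM5A the 3 highest and 3 lowest genes at day 2 were named. The alternatives were other filters, scalings, pseudocounts, fits and peak distances, and leaving out each library. The second input library was not analysed here.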

Additional observations from a re-analysis of the deposited data

How the results depend on the processing

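Of the 200 calls for single genes in the main fits, 0 reversed under the alternatives run. Results not called in the main fits are outside this count, so it says little about stability. Medians near 0 changed sign, and the rises of control and knockdown cells over day 0 stayed within 1.5 times of their counts under every alternative run. With the experiment number as a replicate block the count for RNA was 22 of 37 for the knockdown at day 2, 7 at day 0, and for the difference of the knockdown effect 8 (day 2 minus 4 hours) and 1 (day 2 minus day 0). For H3K4me3 the block gave 22 for KDM5_KD_4h minus Control_D0, 15 for Control_D2 minus Control_D0, 9 for Control_4h minus Control_D0 and 6 for KDM5_KD_D0 minus Control_D2. It gave 4 for KDM5_KD_D2 minus KDM5_KD_4h, 18, 13 and 2 for the columns named knockdown minus control at D0, 4h and D2, and 8 and 3 for KDM5_KD_4h and KDM5_KD_D2 minus KDM5_KD_D0. For KDM5A the correlations ran from 0.073 to 0.53 over only 3 pairs of groups, so whether the numbers pair its libraries stays unclear. The block left 0 calls there.

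The RNA count of the knockdown at day 2 was 1 without the mean-variance trend and 0 with only the compared groups. Median centring gave 15 for KDM5_KD_4h minus Control_4h, 9 for KDM5_KD_4h minus KDM5_KD_D0 and 0 for Control_4h minus Control_D0. It gave 1 each for KDM5_KD_D0 minus Control_D0, KDM5_KD_D0 minus Control_D2, KDM5_KD_D2 minus KDM5_KD_4h and KDM5A at day 2 minus 4 hours. Only the compared groups gave 3 for KDM5_KD_4h minus Control_D0 and minus Control_4h, 1 for KDM5_KD_D0 minus Control_D2, and 0 for Control_4h and Control_D2 minus Control_D0. Peaks within 500 bp (15 genes for H3K4me3) gave 4 for KDM5_KD_4h and for KDM5_KD_D0 minus Control_D0, 1 for KDM5_KD_4h minus Control_4h and 0 for KDM5_KD_4h minus KDM5_KD_D0. Without the trend Control_D2 minus Control_D0 gave 1 and KDM5_KD_4h minus KDM5_KD_D0 gave 0.

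Leaving out 1 library gave, in RNA, 27 to 32 and 33 to 35 for control cells at 4 hours and day 2, 6 to 8 between them, 34 to 35, 31 to 32 and 7 to 10 for the same in knockdown cells, and 0 to 1 for the knockdown at day 2. In H3K4me3 it gave 1 to 8 for KDM5_KD_4h minus Control_D0, 0 to 4 and 3 to 6 for knockdown minus control columns at 4h and D0, 0 to 2 for Control_4h, 0 to 1 for Control_D2 and 0 for KDM5_KD_4h minus KDM5_KD_D0. Where it leaves 1 library in a group, that library is assumed to vary like the others. Single calls were lost in some of these fits, and 35 of the 200 calls were lost with only the compared groups. Where no construction shows it, the cause was not tested. Not run were edgeR on H3K4me3 reads, a second transcript per gene (each has 1) and sums of several peaks (no gene has more than 1 KDM5A peak). RNA depth is unknown, and KDM5C values of few reads limit what can be told apart.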
